A study of Rattus norvegicus with 8 samples.

Results

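MicroRNAs (miRNAs) of the left medial vestibular nucleus (MVN) of the rat were compared between 4 h and 4 d after ear surgery, to find what both operations of the study shared. All 8 arrays of the series were used: the 4 arrays at 4 d were compared with the 4 arrays at 4 h, with the operation as a block. Of the 758 rat miRNAs on the array, 402 were detected on all 4 arrays of at least 1 timepoint and were tested, and 260 of those had the same sign of mean change in both operations (64.7%).

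The rats were male Sprague–Dawley animals, 7 weeks old. In the unilateral vestibular deafferentation (UVD) group the left labyrinth was destroyed through a drilled hole with ethanol, for which the labels give 99% and the study's text another strength. In the sham operation (SO) group the left ear was opened in the same way, with neither fenestration nor ethanol, so exposure of the ear and removal of the eardrum and ossicles are common to all 8 arrays. Each group had 2 arrays per timepoint, and each array held RNA pooled from the left MVNs of 3 animals, so the spread between arrays is a spread between pools. No array of unoperated animals was analysed here, and age at sampling advanced with time after surgery.

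A miRNA guides a silencing complex to messenger RNAs, chiefly through its seed, the bases 2 to 8 from its 5′ end. miRNAs with the same seed bind overlapping sets of messages, and miRNAs cut from neighbouring hairpins of 1 transcript often move together. The MVN receives the vestibular nerve, and after loss of 1 labyrinth its neurons rebalance their firing during vestibular compensation. The brain is rich in miRNAs that mark neurons, glia, blood-derived cells or neighbouring tissues, and some of them, such as miR-132, follow neuronal activity.

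The sequences of the miRNAs on which the results below turn are given first, as RefSeq lists them for the rat (assembly GRCr8), 5′ to 3′, with the seed in capitals. RefSeq sequences matched 368 of the 402 tested miRNAs by name. The miR-17 seed family, with the miR-19 pair from the same transcripts, is shown because its members had higher means at 4 d.
miR-17-5p: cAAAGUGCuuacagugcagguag
miR-20a-5p: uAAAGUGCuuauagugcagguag
miR-20b-5p: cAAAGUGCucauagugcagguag
miR-93-5p: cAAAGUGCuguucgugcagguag
miR-106b-5p: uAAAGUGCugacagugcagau
miR-19a-3p: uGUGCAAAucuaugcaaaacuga
miR-19b-3p: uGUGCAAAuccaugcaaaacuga
The first 5 carry the seed AAAGUGC and the other pair the seed GUGCAAA. The miR-15/16 seed family is shown because all 5 matched members had higher means at 4 d and because miR-195-5p and miR-497-5p had the largest differences in it.
miR-497-5p: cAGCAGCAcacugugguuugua
miR-195-5p: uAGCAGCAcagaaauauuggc
miR-16-5p: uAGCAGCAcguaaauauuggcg
miR-15b-5p: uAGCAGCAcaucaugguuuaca
miR-322-5p: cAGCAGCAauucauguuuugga
All 5 carry the seed AGCAGCA. The next set holds other miRNAs with higher means at 4 d, among them both arms of the blood cell miRNA miR-142.
miR-547-3p: aUUGGUACuucuuuaagugaga
miR-142-3p: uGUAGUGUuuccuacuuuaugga
miR-142-5p: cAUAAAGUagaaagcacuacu
miR-206-3p: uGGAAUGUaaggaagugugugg
miR-34c-5p: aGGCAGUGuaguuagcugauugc
The last set holds miRNAs with lower means at 4 d: 4 neuronal miRNAs from miR-132-3p to miR-137-3p, the Hox cluster miRNA miR-10a-5p, both arms of miR-490, miR-298-5p, and 6 miRNAs of the Dlk1-Dio3 cluster from miR-667-3p on.
miR-132-3p: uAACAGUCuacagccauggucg
miR-212-5p: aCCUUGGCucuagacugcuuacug
miR-138-5p: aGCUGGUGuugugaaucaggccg
miR-137-3p: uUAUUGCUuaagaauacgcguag
miR-10a-5p: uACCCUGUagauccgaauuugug
miR-490-3p: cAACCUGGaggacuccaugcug
miR-490-5p: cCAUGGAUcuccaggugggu
miR-298-5p: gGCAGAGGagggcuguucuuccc
miR-667-3p: uGACACCUgccacccagcccaa
miR-541-5p: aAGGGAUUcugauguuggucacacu
miR-154-5p: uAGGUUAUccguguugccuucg
miR-379-5p: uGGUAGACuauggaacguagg
miR-434-3p: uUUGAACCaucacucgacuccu
miR-127-3p: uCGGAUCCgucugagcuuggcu
No seed is shared among these lower miRNAs.

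The arrays had no saturated spot, and between 378 and 430 miRNAs were detected per array. The median difference of the tested miRNAs between both arrays of a group was 0.09 to 0.15 (log2). Of the summed squares of log2 values over all tested miRNAs, 23.8% lay between timepoints, 18.1% between operations, 16.0% in the combination of both and 42.1% between arrays of a group. Each of the first 3 parts rests on 1 independent difference and the last on 4, so the last share cannot be compared directly with the others. Spread between arrays also adds to each of the first 3 parts. Each value below is a normalized intensity (total gene signal, quantile normalized over the 8 arrays, without unit) unless it is called a log2 change, which is 4 d over 4 h. Levels are compared within a miRNA only, except for the median intensities of separated and other miRNAs. Of the neuron-enriched miRNAs 18 of 24 on the array were tested; no list used here marks the MVN itself, and miRNAs of neighbouring or admixed tissue were measured too: 12 of 15 of choroid plexus and ependyma, 7 of 14 of muscle and 4 of 5 of red cells. All 8 arrays lay on 1 slide, where the 4 h arrays held columns 3 and 4 and the 4 d arrays columns 1 and 2, so slide column and timepoint cannot be told apart.

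One miRNA passed the test over all 402, which is 0.249% of them: miR-547-3p was higher at 4 d in both operations. Its normalized intensities were 2.10 and 1.00 at 4 h and 9.11 and 7.82 at 4 d on the UVD arrays, and 1.00 and 1.00 at 4 h and 3.63 and 3.90 at 4 d on the SO arrays. All 4 values at 4 d lay above all 4 values at 4 h, where 3 of the 4 arrays did not detect it and stood at the floor of 1 (limma, log2 change 2.23, SE 0.25, adjusted p = 0.029). It entered the test only through the arrays at 4 d, all 4 of which detected it, so values at 4 h below those at 4 d were favoured by the filter, and among the 377 miRNAs detected on all 8 arrays 0 passed (limma; 105 had an unadjusted p under 0.05). It was not well above background on either SO array at 4 h, where the SO group at 4 d was at least 1.67-fold higher, set against the lowest signal of any detected miRNA on those arrays. The size of that change rests on the floor, and it ranged from 0.05 to 4.72 over the alternative settings in which it had a value, with an adjusted p from 0.00018 to 0.24. Leaving out either UVD array at 4 d, either SO array at 4 h or SO replicate 2 at 4 d left 0 calls among all miRNAs, with smallest adjusted p of 0.0906, 0.0954, 0.173, 0.142 and 0.102. Leaving out SO replicate 1 at 4 d left 12 calls.

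Which other miRNAs passed depended on the settings, with 0 to 58 calls. Under 4 of them (normexp background correction on the median spot signal, the authors' normalized values, a floor of 10, and a spread fitted to the level), 58, 30, 31 and 31 miRNAs passed. In all 4 settings the same 15 passed, 6 higher and 9 lower at 4 d: miR-142-3p, miR-142-5p, miR-195-5p, miR-497-5p, miR-19a-3p and miR-20a-5p were higher, and miR-132-3p, miR-138-5p, miR-490-3p and 6 miRNAs of the Dlk1-Dio3 cluster (miR-667-3p, miR-154-5p, miR-376a-3p, miR-379-5p, miR-411-5p and miR-541-5p) were lower. These settings were run on the same 8 arrays and are no further evidence.

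Smaller differences were common. At an unadjusted p under 0.05, 105 miRNAs (26.1%) differed between timepoints, 40 of them (9.95%) higher and 65 (16.2%) lower at 4 d. At an adjusted p under 0.1 there were 46 (11.4%), with 19 (4.73%) higher and 27 (6.72%) lower. For 95 miRNAs (23.6%) the arrays of the timepoints did not overlap within either operation and lay the same way in both: 36 (8.96%) were higher and 59 (14.7%) lower at 4 d. Over all 8 arrays, 51 (12.7%) did not overlap between timepoints, 23 (5.72%) of them higher and 28 (6.97%) lower. Mean changes were above 0 in 201 miRNAs (50%) and below 0 in 201 (50%). Within 1 operation non-overlap was frequent, with 46% of miRNAs for UVD and 56% for SO, as each side then has 2 arrays. For 21 (5.22%) the arrays did not overlap in either operation but lay in opposite directions. Scaled to the 75th percentile of all miRNAs in place of quantiles, the median change of all tested miRNAs moved from 0.00 to 0.12 (log2) and the share of higher miRNAs among those at an unadjusted p under 0.05 moved from 38.1% to 76.2%. Directions below are therefore relative to the other miRNAs.

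The UVD and SO changes share no array, so each can be read beside the other. Of the 402 miRNAs, 137 (34.1%) had lower means at 4 d in both operations and 123 (30.6%) had higher means in both, and 12 had a change of exactly 0 in an operation because quantile normalization ties values. Across miRNAs, which are not independent and share a slide, a scan and a joint normalization, the changes had a Pearson r of 0.20 and a Spearman rho of 0.32. Among the 377 miRNAs detected on all 8 arrays these were 0.15 and 0.36. Of the 37 miRNAs with higher values at 4 d in the UVD group at an unadjusted p under 0.05, 33 also had higher means in the SO group, and their median log2 change was 0.37 with UVD and 0.16 with SO. Of the 31 with lower values in the UVD group, 27 had lower means in the SO group, with medians of -0.24 and -0.20. Starting from the SO group, 27 of 42 higher miRNAs had higher means in the UVD group (medians 0.37 and 0.12), and 52 of 59 lower miRNAs had lower means there (medians -0.34 and -0.16). In each of these 4 sets the group that did not choose the miRNAs had the smaller median.

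**Figure D1:**
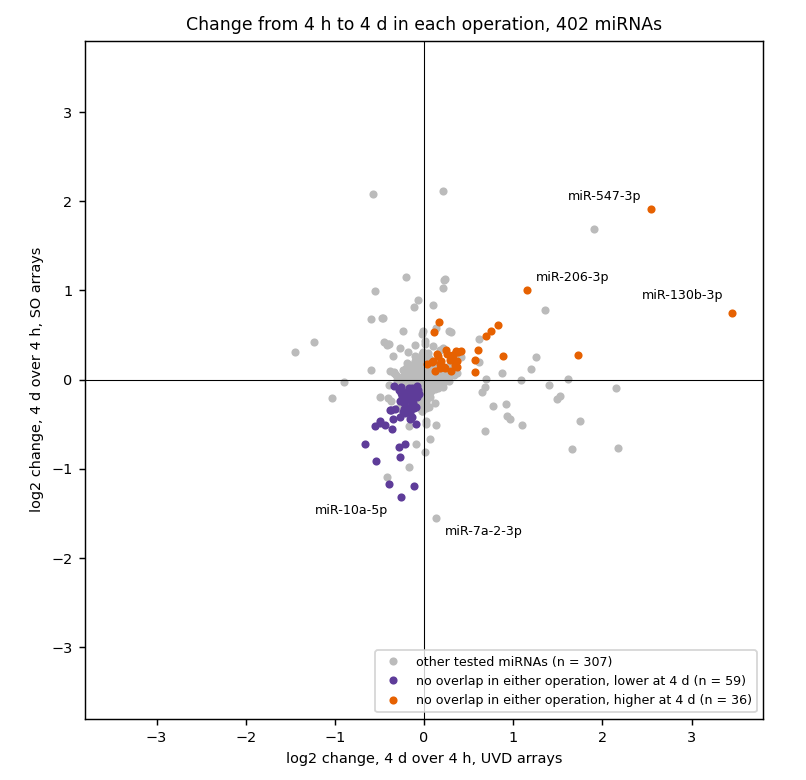
Log2 change from 4 h to 4 d on the UVD arrays (horizontal axis) and the SO arrays (vertical axis), 1 point per tested miRNA. Orange and purple points mark the 36 miRNAs higher and the 59 lower at 4 d whose arrays did not overlap in either operation, and most of the other 307 lie near 0 on both axes.

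Among the miRNAs with higher means at 4 d were those of blood-derived cells. miR-142, which is made in cells of the blood lineage including microglia, was higher on both of its arms. miR-142-3p had 366 and 402 at 4 h and 581 and 712 at 4 d on the UVD arrays, and 379.7 and 385 at 4 h and 491 and 629 at 4 d on the SO arrays. The 4 arrays at 4 d all lay above the 4 arrays at 4 h (limma, log2 change 0.64, SE 0.11, adjusted p = 0.0619), and the log2 change was 0.75 with UVD and 0.54 with SO. miR-142-5p had 45.3 and 48.9 at 4 h and 67.3 and 76.5 at 4 d on the UVD arrays, and 54.5 and 56.5 at 4 h and 67.3 and 72.9 at 4 d on the SO arrays. Here too no array at 4 d overlapped one at 4 h, but neither arm passed the threshold (log2 change 0.47, SE 0.08, adjusted p = 0.0619). In bulk tissue such as this, more cells of a type and more RNA per cell cannot be told apart.

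The other microglia and leukocyte miRNAs had the same sign in the combined model but less separation. All 7 tested members of that list, both arms of miR-142 among them, had higher means at 4 d, with a median log2 change of 0.30 beside 0.00 over all tested miRNAs. Of the 7, 5 had an unadjusted p under 0.05 (9.95% of all tested miRNAs were higher at that limit), and none passed the test. The 2 that did not overlap in either operation were the arms of miR-142 (8.96% of all were higher in that way). The sign was the same in both operations for 5 of 7, with 6 higher means and 1 lower in each. The mean log2 level of the 7 was 7.22 to 7.40 on the arrays at 4 h and 7.49 to 7.97 at 4 d, without overlap. The inflammatory miRNAs miR-155-5p (log2 change 0.41, SE 0.14, adjusted p = 0.121) and miR-146a-5p (log2 change 0.28, SE 0.08, adjusted p = 0.101) were chosen here after their values were seen and had higher means in both operations. miR-223-3p, a neutrophil and myeloid miRNA also named after its values were seen, was carried by a single array: it had 107 and 74.5 at 4 h and 77.5 and 267 at 4 d on the UVD arrays, and 69.5 and 65.8 at 4 h and 65.8 and 61.8 at 4 d on the SO arrays, so replicate 2 of the UVD group at 4 d stood apart and the SO arrays at 4 d did not lie above those at 4 h.

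The red cell miRNAs had higher means at 4 d as well. All 4 tested erythroid miRNAs had higher means at 4 d (median log2 change 0.32), none passed the test and 1 had an unadjusted p under 0.05, beside 9.95% of all tested miRNAs. Only 3 of the 4 were detected on all 8 arrays, and these 3 had higher means. Their mean log2 level was 5.41 to 6.25 at 4 h and 6.17 to 6.81 at 4 d, so the timepoints overlapped. miR-486 had 86.2 and 79.5 at 4 h and 99.7 and 107 at 4 d on the UVD arrays, and 82.7 and 76.5 at 4 h and 85.3 and 109 at 4 d on the SO arrays (log2 change 0.30, SE 0.09, adjusted p = 0.101). miR-144-5p, a miRNA of the erythroid miR-144/451 locus, had 4.78 and 1.00 at 4 h and 10.3 and 5.03 at 4 d on the UVD arrays, and 5.24 and 5.24 at 4 h and 5.63 and 7.17 at 4 d on the SO arrays, with 1 array at 4 h at the floor (log2 change 1.00, SE 0.57, adjusted p = 0.306). That array did not detect miR-144-5p, which entered the test only through the arrays at 4 d. A higher mean at 4 d was therefore favoured by the filter. The part of blood in the differences of miR-142 was not tested.

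miR-195-5p and miR-497-5p, which are cut from neighbouring hairpins on chromosome 10, had higher means at 4 d and were detected on all 8 arrays. miR-195-5p lies at chr10:55450509-55450529 and miR-497-5p at chr10:55450172-55450193, both on the plus strand (GRCr8). miR-195-5p had 1077 and 1115 at 4 h and 1709 and 2212 at 4 d on the UVD arrays, and 962 and 912 at 4 h and 1201 and 1709 at 4 d on the SO arrays. Each array at 4 d lay above all 4 at 4 h, which is 1.65-fold by the model (log2 change 0.72, SE 0.14, adjusted p = 0.0619). miR-497-5p had 1014 and 1030 at 4 h and 1503 and 1834 at 4 d on the UVD arrays, and 976 and 879.8 at 4 h and 1161 and 1464 at 4 d on the SO arrays, again without overlap and 1.51-fold (log2 change 0.60, SE 0.11, adjusted p = 0.0619). By operation, the log2 change of miR-195-5p was 0.83 with UVD and 0.61 with SO, and that of miR-497-5p was 0.70 with UVD and 0.49 with SO.

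The dim miR-130b-3p, named after its values were seen, had 3.12 and 1.00 at 4 h and 13.4 and 27.8 at 4 d on the UVD arrays, and 5.47 and 4.65 at 4 h and 10.8 and 6.69 at 4 d on the SO arrays. It did not overlap over all 8 arrays but entered the test only through the arrays at 4 d, and 1 UVD array at 4 h did not detect it and stood at the floor (log2 change 2.10, SE 0.67, adjusted p = 0.11). The size of that change and of the 3.45 with UVD rests on the floor, while the log2 change was 0.75 with SO, where all 4 arrays detected it.

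The rest of the seed family of miR-195-5p and miR-497-5p, which is known for restraining the cell cycle, differed less. These other members were named after their values were seen. miR-16-5p had 6228 and 6360 at 4 h and 7029 and 7267 at 4 d on the UVD arrays, and 6045 and 6360 at 4 h and 6578 and 7029 at 4 d on the SO arrays, so all 4 arrays at 4 d lay above all at 4 h by a small margin (log2 change 0.16, SE 0.05, adjusted p = 0.0986). miR-15b-5p did not overlap within either operation (log2 change 0.22), while miR-322-5p with the same seed had a log2 change of 0.05 (SE 0.07) and overlapped. miR-15a-5p, named after its values were seen, had a log2 change of 0.27 with an adjusted p of 0.0679. The 5 members matched to RefSeq had a median log2 change of 0.22, and 4 of the 5 did not overlap within either operation (8.96% of all tested miRNAs were higher in that way). These miRNAs differ from each other by few bases in the first part of the molecule, and how far their probes share signal was not tested.

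miR-195-5p, miR-497-5p and miR-206-3p are also the 3 tested members of the list of miRNAs enriched in cerebellum, which lies above the MVN and has 6 members on the array. miR-206-3p, otherwise a muscle miRNA, had 39.9 and 49.8 at 4 h and 88.3 and 111 at 4 d on the UVD arrays, and 25.8 and 35.6 at 4 h and 42.3 and 87.4 at 4 d on the SO arrays. Within each operation its arrays at 4 d lay above those at 4 h, but UVD replicate 2 at 4 h lay above SO replicate 1 at 4 d (log2 change 1.08, SE 0.25, adjusted p = 0.0679). The mean log2 level of the 3 miRNAs was 8.18 to 8.59 at 4 h and 8.60 to 9.58 at 4 d, without overlap. The amount of cerebellum in the dissected tissue was not tested.

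Of the muscle miRNAs, miR-206-3p was the one member of 7 tested whose arrays did not overlap in either operation (8.96% of all tested miRNAs were higher in that way). miR-1-3p, which has the same seed as miR-206-3p, had 25.2 and 20.9 at 4 h and 27.8 and 17.4 at 4 d on the UVD arrays, and 13.1 and 17.9 at 4 h and 25.8 and 31.4 at 4 d on the SO arrays. Its UVD arrays overlapped and its SO arrays did not (log2 change 0.42, SE 0.26, adjusted p = 0.348). The median of the 7 was 0.08, with 5 higher and 2 lower means, and their mean log2 level of 5.65 to 6.10 at 4 h overlapped with 5.95 to 6.34 at 4 d. The sign was the same in both operations for 3 of 7, and the median was -0.097 with UVD and 0.36 with SO.

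**Figure D2:**
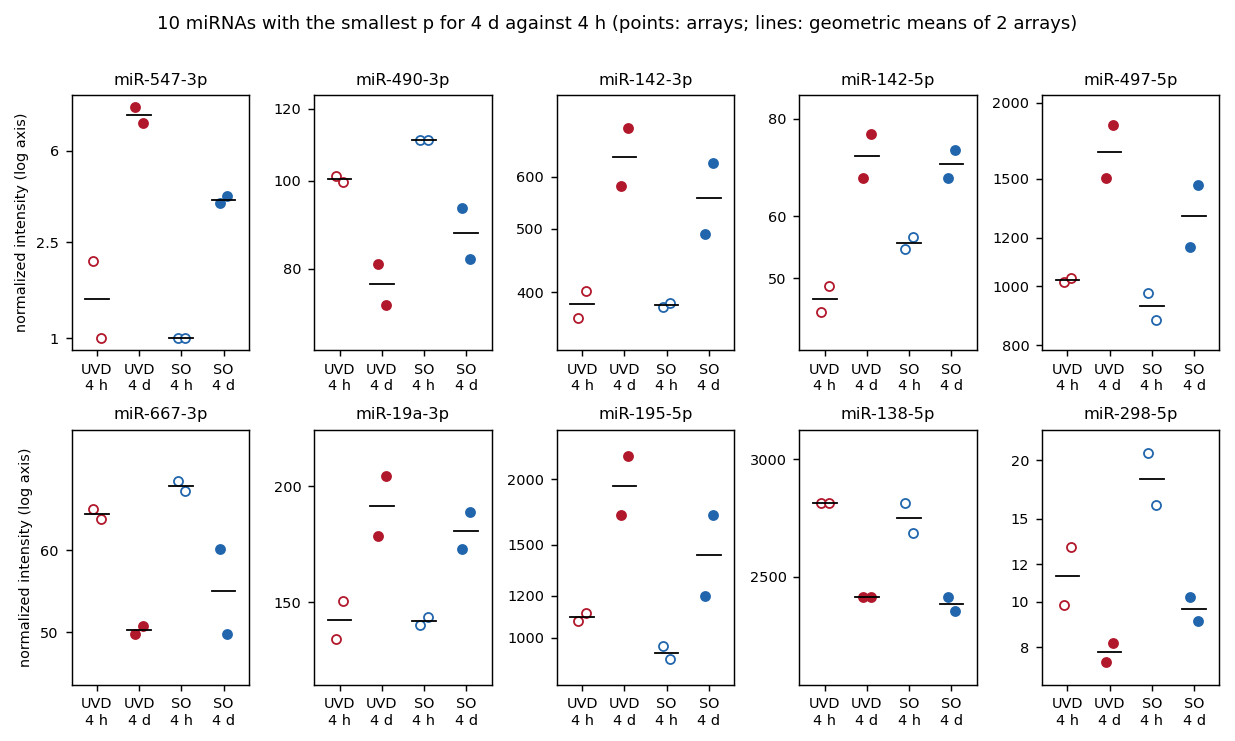
Normalized intensity of the 10 miRNAs with the smallest p, on a log axis, for each array (points) and the geometric mean of the 2 arrays of a group (lines), with UVD in red, SO in blue, open points at 4 h and filled points at 4 d. In 9 of the 10 panels no 4 d array overlaps a 4 h array; in the panel of miR-298-5p the UVD arrays at 4 h reach the range of the SO arrays at 4 d.

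The miR-17 clusters, a set of 3 related transcripts known for driving proliferation, had higher means at 4 d in most members. Of 14 tested miRNAs 12 had higher means, 10 were higher at an unadjusted p under 0.05 (9.95% of all tested miRNAs), 8 were higher without overlap within either operation (8.96% of all), and the median log2 change was 0.21. Of the 13 that were detected on all 8 arrays, 11 had higher means. The members with lower means, 2 of 14, overlapped and had an unadjusted p over 0.05, and none of the 14 passed the test over all miRNAs. By operation, 13 of 14 had higher means with UVD and 12 of 14 with SO. At 4 h the mean log2 level of the list was 6.50 to 6.67 and at 4 d it was 6.72 to 6.95, without overlap.

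miR-19a-3p had the smallest p of that list. Its values were 137 and 150.3 at 4 h and 177 and 205 at 4 d on the UVD arrays, and 142 and 145 at 4 h and 171 and 187 at 4 d on the SO arrays. All 4 arrays at 4 d lay above the 4 at 4 h (log2 change 0.36, SE 0.07, adjusted p = 0.0619). miR-20a-5p had 598 and 629 at 4 h and 721 and 879.8 at 4 d on the UVD arrays, and 571 and 598 at 4 h and 721 and 728 at 4 d on the SO arrays, also without overlap (log2 change 0.34, SE 0.07, adjusted p = 0.0679). In the seed family AAAGUGC all 5 members had higher means, and the median was 0.29. The gap was narrower for miR-93-5p, named after its values were seen, with a log2 change of 0.17. Its SO values were 452 and 464 at 4 h and 464 and 534 at 4 d, which touched.

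By genomic position, 8 of 9 tested miRNAs from Mir17 to Mir92a1 (chr15:98587848-98588632, GRCr8) had higher means, and 6 of them did not overlap in either operation (8.96% of all tested miRNAs were higher in that way). From Mir363 to Mir106a on the X chromosome (chrX:137342777-137343647) all 4 tested miRNAs were separated upwards in both operations, beside the same 8.96% of all. Some of these mature miRNAs are encoded in more than 1 of the clusters: miR-17-5p has the same sequence in Mir17 and Mir106a, and miR-19b-3p and miR-92a-3p have 2 precursors each, so the array cannot assign their signal to a cluster.

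The let-7 miRNAs, which are abundant in mature neurons and glia, had small differences. Of 14 tested 13 had higher means, but the median log2 change was 0.09. The sign was the same in both operations for 9 of 14, with 9 higher and 3 lower means with UVD and 14 higher with SO. The arrays of 1 of 14 did not overlap in either operation, beside 8.96% of all tested miRNAs that were higher in that way. That one was let-7i-5p (log2 change 0.11, SE 0.04, adjusted p = 0.13). All 9 miRNAs with the let-7 seed GAGGUAG had higher means, with a median of 0.10.

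Several miRNAs of ciliated and secretory lining cells had higher means at 4 d, with unequal sizes, and in part unlike signs, in the operations. miR-34c-5p, of the miR-34b/c locus that is active in ciliated cells, had 912 and 949.5 at 4 h and 1046 and 1046 at 4 d on the UVD arrays, and 681 and 590.0 at 4 h and 976 and 1000 at 4 d on the SO arrays. The 4 arrays at 4 d lay above all at 4 h (log2 change 0.40, SE 0.11, adjusted p = 0.0816), and the SO arrays at 4 h were the lowest. The log2 change was 0.17 with UVD and 0.64 with SO. For miR-204-5p, which marks choroid plexus, it was 0.57 with UVD and 0.09 with SO. The list of choroid plexus and ciliated ependyma had 12 tested members, of which 10 had higher means, 3 were separated upwards and 1, miR-211-3p, downwards in both operations (8.96% and 14.7% of all tested miRNAs), with a median of 0.33 that was 0.26 with UVD and 0.08 with SO. Of its 11 members detected on all 8 arrays, 9 had higher means. The sign was the same in both operations for 7 of 12, beside 64.7% of all tested miRNAs. With UVD 10 had higher and 2 lower means, and with SO 7 had higher and 5 lower means. The mean log2 level of the list was 5.84 to 6.08 at 4 h and 6.01 to 6.66 at 4 d, so the timepoints overlapped. The part of such cells in the differences was not tested.

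A cluster on the X chromosome from Mir532 to Mir500 (chrX:17919185-17930726, GRCr8) was found by position alone and had 4 of 5 tested miRNAs with higher means (50% of all tested miRNAs). Of the 5, 3 were higher at 4 d without overlap within either operation (8.96% of all). It and its members were chosen here after their values were seen. miR-500-3p had 262 and 256 at 4 h and 284 and 304 at 4 d on the UVD arrays, and 252 and 248 at 4 h and 276 and 289 at 4 d on the SO arrays, and no array at 4 d overlapped one at 4 h (log2 change 0.18, SE 0.04, adjusted p = 0.0706). miR-532-5p (log2 change 0.26, SE 0.06, adjusted p = 0.0725) and miR-362-3p (log2 change 0.29, SE 0.07, adjusted p = 0.0752) were separated in the same way, while miR-188-5p from between them had a log2 change of -0.30 (SE 0.20) and overlapped.

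On the injury and hypoxia list, 2 of 4 members had higher means and 2, miR-146b-5p and miR-21-3p, had lower means. The median log2 change was 0.07, and that of miR-21-3p, the other arm of miR-21-5p, was -0.09. The arrays of 2 of the 4 were higher at 4 d without overlap within either operation, beside 8.96% of all tested miRNAs. miR-210-3p, the miRNA that hypoxia induces, had 133 and 152 at 4 h and 179.5 and 187 at 4 d on the UVD arrays, and 139 and 137 at 4 h and 147 and 157 at 4 d on the SO arrays. It did not overlap within either operation (log2 change 0.25, SE 0.07, adjusted p = 0.0986). miR-21-5p, which rises in injured tissue, had 4964 and 4773 at 4 h and 5151 and 7029 at 4 d on the UVD arrays, and 4773 and 4773 at 4 h and 4964 and 5271 at 4 d on the SO arrays. Its UVD and SO arrays were separated by narrow margins except for UVD replicate 2 at 4 d, which was well above the rest (log2 change 0.20, SE 0.10, adjusted p = 0.26).

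The largest group with lower means at 4 d was the Dlk1-Dio3 cluster, the large imprinted miRNA locus that is active in neurons. Of its 60 tested miRNAs 57 had lower means at 4 d, and none passed the threshold of 0.05. An unadjusted p under 0.05 was found for 29, all of them lower (16.2% of all tested miRNAs were lower at that limit). An adjusted p under 0.1 was found for 13, all lower (6.72% of all). For 31 of the 60 (51.7%) the arrays did not overlap in either operation and were lower in both, beside 14.7% of all tested miRNAs and 28 of 342 (8.19%) of those outside the cluster. The cluster thus held 31 of the 59 miRNAs with that pattern (52.5%). Its median log2 change was -0.19: -0.14 with UVD and -0.23 with SO.

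The differences of single members were small and close to each other. Of the cluster members given below, miR-667-3p and miR-541-5p were named by rule and the others after their values were seen. miR-379-5p, at the start of the largest hairpin array of the cluster, had 1046 and 1014 at 4 h and 868 and 912 at 4 d on the UVD arrays, and 1242 and 1161 at 4 h and 987 and 868 at 4 d on the SO arrays. Its 4 arrays at 4 h lay above the 4 at 4 d (log2 change -0.29, SE 0.07, adjusted p = 0.0679). miR-667-3p had 65.8 and 64.3 at 4 h and 49.8 and 50.8 at 4 d on the UVD arrays, and 70.0 and 68.4 at 4 h and 60.2 and 49.8 at 4 d on the SO arrays, also without overlap (log2 change -0.35, SE 0.07, adjusted p = 0.0619). miR-434-3p, cut from a hairpin upstream of that array, had 5151 and 4964 at 4 h and 4505 and 4505 at 4 d on the UVD arrays, and 5418 and 5271 at 4 h and 4773 and 4505 at 4 d on the SO arrays (log2 change -0.19, SE 0.04, adjusted p = 0.0679). It was lower on every array at 4 d than on any at 4 h.

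miR-127-3p and miR-541-5p were separated within both operations but not over all 8 arrays, because the SO arrays were higher at both timepoints. miR-127-3p had 7029 and 6745 at 4 h and 5418 and 5604 at 4 d on the UVD arrays, and 8875 and 7267 at 4 h and 6745 and 6045 at 4 d on the SO arrays (log2 change -0.33, SE 0.08, adjusted p = 0.0679). For miR-541-5p the values were 114 and 122 at 4 h and 101 and 99.7 at 4 d on the UVD arrays, and 145 and 139 at 4 h and 118 and 103 at 4 d on the SO arrays (log2 change -0.30, SE 0.06, adjusted p = 0.0679). miR-154-5p differed least among these examples and with the smallest SE, with 962 and 939.5 at 4 h and 852 and 852 at 4 d on the UVD arrays, and 1014 and 1030 at 4 h and 912 and 879.8 at 4 d on the SO arrays (log2 change -0.17, SE 0.04, adjusted p = 0.0679).

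In genomic order, 58 tested miRNAs of the cluster could be placed in 42 precursor genes between chr6:134298129 and 134579828 (GRCr8). Lower means were found for 49 of them with UVD, 55 with SO and 46 with both. The difference ran over the whole locus: in the stretch from Mir770 to Mir136 all 10 tested miRNAs had lower means (median -0.15), and from Mir379 to Mir410 37 of 39 did (median -0.19), with 21 separated downwards in both operations (14.7% of all tested miRNAs were lower in that way). The exceptions there were miR-376c-3p, with a log2 change of 0.0075, and miR-377-3p, with a log2 change of 1.53 with UVD and -0.18 with SO. miR-299b-3p, the other tested member of the cluster with a higher mean, had 1.66 with UVD and -0.78 with SO. For miR-377-3p and miR-299b-3p the UVD change rests on 1 array at 4 h that stood at the floor. With each array left out in turn, 56 to 58 of the 60 members had lower means and the median lay between -0.20 and -0.14. With the 75th percentile of all miRNAs as scale, 53 of 60 had lower means, and the median was -0.11, which is 0.23 below the median of all miRNAs.

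**Figure D3:**
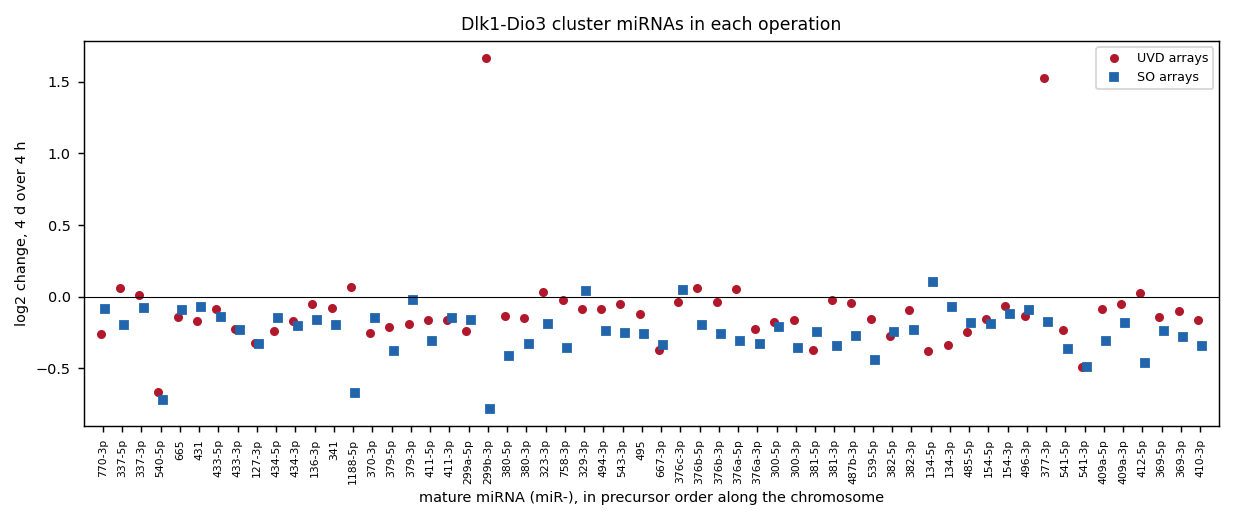
Log2 change from 4 h to 4 d of 58 Dlk1-Dio3 miRNAs in the order of their precursors along the chromosome, with red circles for UVD and blue squares for SO arrays. Most points lie between 0 and -0.5 along the whole locus, 49 of 58 below 0 in UVD and 55 of 58 in SO.

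Outside that locus, too, more miRNAs had the same sign of change in both operations than not. Among the 342 other tested miRNAs 62.3% had the same sign of change in both operations, beside 64.7% of all 402, and the Spearman rho was 0.27. Their median change was 0.04.

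Activity-dependent miRNAs of neurons had lower means at 4 d. All 6 tested members had lower means, 4 did not overlap within either operation (14.7% of all tested miRNAs were lower in that way), 3 had an unadjusted p under 0.05 (16.2% of all were lower at that limit), none passed the test, and the median log2 change was -0.21. miR-132-3p, which is transcribed under the activity-dependent factor CREB, had 1571 and 1503 at 4 h and 1115 and 1161 at 4 d on the UVD arrays, and 1921 and 1709 at 4 h and 1464 and 1115 at 4 d on the SO arrays. Every array at 4 d was below every array at 4 h (log2 change -0.47, SE 0.09, adjusted p = 0.064). miR-212-5p, cut from the neighbouring hairpin, was dim, with 6.29 and 9.38 at 4 h and 5.03 and 5.47 at 4 d on the UVD arrays, and 10.6 and 11.0 at 4 h and 8.58 and 6.57 at 4 d on the SO arrays (log2 change -0.54, SE 0.14, adjusted p = 0.0816). The other arm, miR-212-3p, overlapped and had a log2 change of -0.12 (SE 0.07). miR-134-3p, miR-134-5p and miR-485-5p of this list belong to the Dlk1-Dio3 cluster too and were counted there, with miR-134-3p and miR-485-5p among the separated ones. The sign was the same in both operations for 5 of the 6 members. The log2 change of miR-134-5p was -0.38 with UVD and 0.10 with SO. miR-485-5p had a log2 change of -0.21, -0.24 with UVD and -0.18 with SO.

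Other neuronal miRNAs did not move as 1 group. Of 18 tested neuron-enriched miRNAs 12 had lower and 6 higher means, 6 had an unadjusted p under 0.05, all lower (16.2% of all tested miRNAs), and 3 of 18 were separated downwards in both operations, a share near the 14.7% of all. The median of -0.05 was close to that of all miRNAs. The mean log2 level of the list was 9.48 to 9.71 at 4 h and 9.39 to 9.45 at 4 d, without overlap. miR-138-5p, a brain miRNA that acts at dendritic spines, had 2801 and 2801 at 4 h and 2422 and 2422 at 4 d on the UVD arrays, and 2801 and 2675 at 4 h and 2422 and 2370 at 4 d on the SO arrays, and no array at 4 d reached one at 4 h (log2 change -0.20, SE 0.04, adjusted p = 0.0619). For miR-137-3p the values were 604 and 614 at 4 h and 474 and 534 at 4 d on the UVD arrays, and 1030 and 1046 at 4 h and 614 and 524 at 4 d on the SO arrays. It was lower at 4 d in both operations, with a log2 change of -0.28 with UVD and -0.87 with SO, and the SO arrays at 4 h were far above the other 6 (log2 change -0.57, SE 0.13, adjusted p = 0.0679).

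The same shape was seen in the miRNAs of the Hox clusters, which are active in hindbrain and spinal cord. miR-10a-5p had 200.0 and 205 at 4 h and 168 and 171 at 4 d on the UVD arrays, and 491 and 452 at 4 h and 226 and 159 at 4 d on the SO arrays. The SO arrays at 4 h were more than 2-fold above the UVD arrays at 4 h, and the SO arrays at 4 d lay close to the UVD arrays (log2 change -0.78, SE 0.23, adjusted p = 0.101). miR-10b-5p had 136 and 129 at 4 h and 109 and 93.3 at 4 d on the UVD arrays, and 256 and 256 at 4 h and 133 and 98.4 at 4 d on the SO arrays (log2 change -0.78, SE 0.18, adjusted p = 0.0679). Both were lower at 4 d in both operations without overlap, by a log2 change of -0.25 with UVD and -1.31 with SO for miR-10a-5p and -0.39 with UVD and -1.17 with SO for miR-10b-5p. The difference between operations did not pass the test for either (adjusted p = 0.404 and 0.468), and the 2 tested Hox miRNAs are near-identical in sequence.

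Both arms of miR-490 were lower at 4 d in both operations by nearly the same amount. miR-490-3p had 101 and 99.7 at 4 h and 81.0 and 72.9 at 4 d on the UVD arrays, and 111 and 111 at 4 h and 93.3 and 82.0 at 4 d on the SO arrays (log2 change -0.36, SE 0.06, adjusted p = 0.0619). miR-490-5p, named after its values were seen, had 83.6 and 80.5 at 4 h and 53.9 and 62.6 at 4 d on the UVD arrays, and 91.6 and 89.1 at 4 h and 74.5 and 57.2 at 4 d on the SO arrays (log2 change -0.48, SE 0.09, adjusted p = 0.0619). No array at 4 d overlapped one at 4 h on either arm. Among the 101 precursors with both arms tested, the arms had the same sign in 66 (65.3%). In 9 of the 101 both arms were separated in both operations in 1 direction. Of all single tested miRNAs, 8.96% were separated upwards and 14.7% downwards. The 9 were miR-142, miR-490, miR-34c and, from the Dlk1-Dio3 cluster described above, miR-541, miR-380, miR-300, miR-411, miR-434 and miR-154.

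miR-298-5p was dim and lower at 4 d. It had 9.82 and 13.1 at 4 h and 7.46 and 8.15 at 4 d on the UVD arrays, and 20.7 and 16.1 at 4 h and 10.2 and 9.11 at 4 d on the SO arrays. Within each operation the arrays did not overlap, and the SO arrays were the higher ones at each timepoint (log2 change -0.73, SE 0.14, adjusted p = 0.0619).

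Lists of other cells showed no common direction. Of 6 oligodendrocyte miRNAs 3 had higher and 3 lower means, with a median of -0.004 and none separated in both operations. miR-219a-5p of this list had 27830 and 26530 at 4 h and 27830 and 23570 at 4 d on the UVD arrays, and 29050 and 29050 at 4 h and 29050 and 33710 at 4 d on the SO arrays. The 5 vessel miRNAs had a median of -0.01 and the 3 fibroblast and mesenchymal miRNAs a median of -0.04, with none separated in both operations in either list and no unadjusted p under 0.05.

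**Figure D4:**
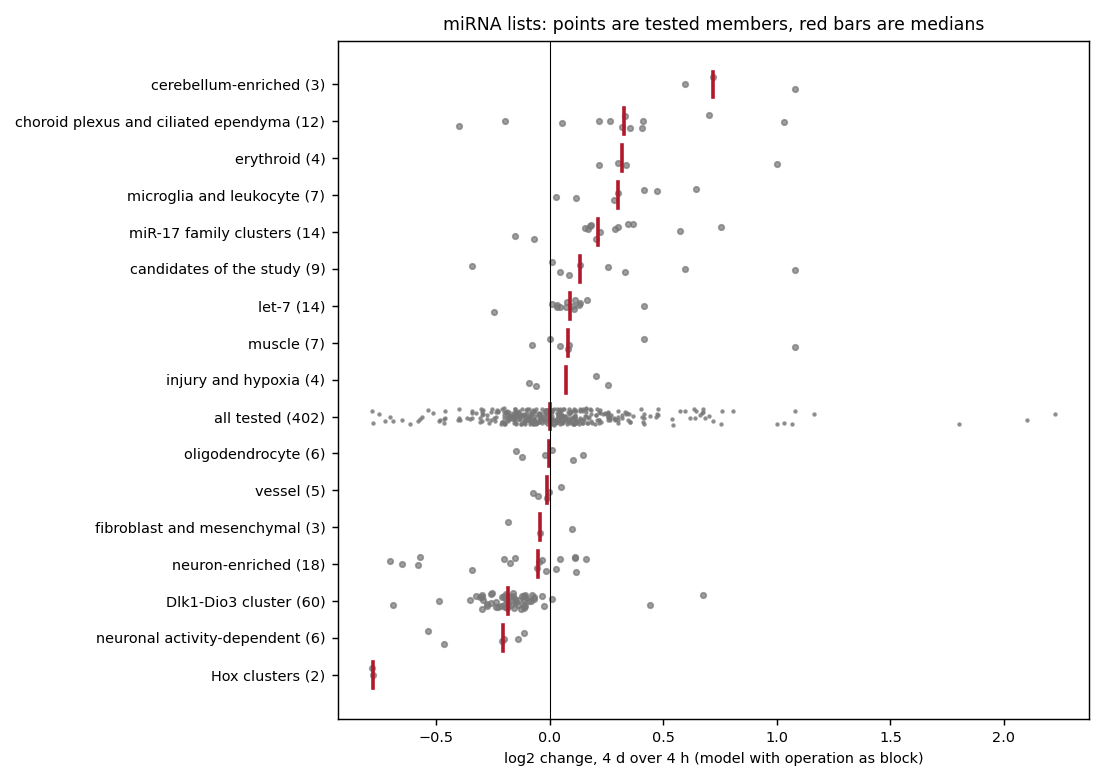
Log2 change from 4 h to 4 d (horizontal axis, model with operation as block) of each tested member of 16 miRNA lists and of all 402 tested miRNAs, with medians as red bars and the number tested in parentheses. The medians of the Dlk1-Dio3 (-0.19), activity-dependent (-0.21) and Hox (-0.78) lists lie below 0 and those of the microglia and leukocyte (0.30), erythroid (0.32) and miR-17 (0.21) lists above it.

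The 9 candidate miRNAs that the study chose on these arrays are not independent evidence of a direction, because the choice used the change within the UVD group or the difference between operations and left out miRNAs that moved in the SO group. Of the 9, 8 had higher means at 4 d in the combined model and 4 had the same sign in both operations (64.7% of all tested miRNAs). The arrays of 3 did not overlap in either operation and were higher at 4 d (8.96% of all): miR-497-5p, miR-206-3p and miR-204-5p. For miR-218a-5p the log2 change was -0.49 with UVD and -0.20 with SO (log2 change -0.34, SE 0.10, adjusted p = 0.103). miR-221-3p differed in sign between the operations, with 0.65 with UVD and -0.14 with SO. The log2 changes were -0.02 with UVD and 0.29 with SO for miR-31a-5p, -0.27 with UVD and 0.36 with SO for miR-133a-3p and -0.10 with UVD and 0.26 with SO for miR-133b-3p.

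One time change was different in the operations by the test of the difference itself (1 of 402, 0.249%, and 36 or 8.96% at an unadjusted p under 0.05). miR-7a-2-3p had 8.998 and 9.52 at 4 h and 10.8 and 9.62 at 4 d on the UVD arrays, and 19.1 and 17.7 at 4 h and 6.29 and 6.29 at 4 d on the SO arrays. All UVD arrays lay between 8.998 and 10.8, while the SO arrays were above that range at 4 h and below it at 4 d (limma on 4 group means, log2 change 0.14 with UVD and -1.55 with SO, difference 1.68, adjusted p = 0.00563). There were 0 such calls with either percentile scale, normexp, the authors' values or a spread fitted to the level, and 0 without SO replicate 1 at 4 h or SO replicate 2 at 4 d, 9 without UVD replicate 1 at 4 h and 3 without SO replicate 1 at 4 d. miR-7a-5p, a miRNA of neuroendocrine and neuronal cells whose precursors include that of miR-7a-2-3p, had 414 and 452 at 4 h and 402 and 402 at 4 d on the UVD arrays, and 868 and 868 at 4 h and 452 and 318 at 4 d on the SO arrays. It was lower at 4 d in both operations, with log2 changes of -0.11 with UVD and -1.20 with SO, and the test of the difference gave an adjusted p of 0.404.

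The separated miRNAs were brighter than the others, with a median normalized intensity of 269.8 in the higher and 235.6 in the lower ones. In the other tested miRNAs it was 66.95. What the separated miRNAs had in common beyond this and their lists was limited. The 36 with higher values at 4 d had a median log2 change of 0.29 and a range of 0.11 to 2.23, and the 59 with lower values had a median of -0.24 and a range of -0.78 to -0.07. Median GC content of the mature sequence was 45.5% in 33 higher miRNAs with a sequence, 48.9% in 56 lower ones and 47.6% in 279 others. Across tested miRNAs the Spearman rho of GC content with the log2 change was -0.16 (-0.21 with UVD, -0.10 with SO).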

How the data were processed

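Left MVNs of 24 rats were pooled by 3 on 8 Agilent miRNA arrays (single dye, Feature Extraction 10.7.3.1 per the file headers). Spot intensity from the scanner was deposited with the software's total gene signal, a sum over 16 background-subtracted spots, and with quantile-normalized intensity values made by the authors in GeneSpring.

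Here the total gene signals of non-control spots were quantile normalized over the 8 arrays, floored at 1 and log2 transformed. limma 3.58.1 (R 4.3.3) was fitted to the 402 of 758 miRNAs that every array of a timepoint detected (lmFit and eBayes, timepoint plus operation; 4 group means for the difference between operations), two-sided, with Benjamini-Hochberg adjustment at 0.05. The number of arrays limits the precision. Arrays of a group were grouped by their titles.

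The members, the lists and the settings were chosen with earlier results of these data known. miRNAs were named by this rule: the 10 with the smallest p if fewer than 10 passed, and the 2 with the smallest p of each list without a call. The 3 with the smallest p for a difference between operations and the study's candidates were added. All other miRNAs were named after their values were seen, and not each of them is marked so in the text. Lists, seed families (seed in bases 2 to 8, at least 3 tested members), hairpins within 10 kb and arm pairs are described by counts and medians, without a test. Sequences and positions come from RefSeq (GRCr8). Replicate numbers of the titles did not pair the arrays. Alternatives were other scalings, signals, floors and filters, other models of the spread, a block for replicate number, the methods' t-test, each operation alone, and each array left out in turn. The normexp alternative used the median spot signal with an offset of 50.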

Additional observations from a re-analysis of the deposited data

Results flagged for a closer look

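Within the 4 arrays of a timepoint, the gap of the outermost array to its neighbour was compared with the range of the 4. This compares arrays of both operations, chance exceeds the limit in about 1 of 20 groups, and values tied by quantile normalization give a share of 1. At 4 h the gap was 1 of the range for miR-547-3p, miR-138-5p and miR-21-5p, where 3 of 4 arrays were tied, 0.944 for miR-144-5p and 0.829 for miR-133b-3p. At 4 d it was 0.905 for miR-667-3p, 0.853 for miR-132-3p, 0.857 for miR-32-5p and 0.948 for miR-20a-5p, and 1 for miR-138-5p, miR-338-3p, miR-143-3p, let-7i-5p and miR-218a-5p. The time change of miR-7a-2-3p differed between the operations by 1.68 (log2, UVD minus SO; limma, adjusted p = 0.00563), 0.14 with UVD and -1.55 with SO. The arrays stood at 8.998, 9.52, 10.8 and 9.62 in the UVD group, and at 19.1 and 17.7 at 4 h against 6.29 and 6.29 at 4 d in the SO group. The cause of these differences was not tested.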

How the results depend on the processing

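The count of called miRNAs, 1 in the reported setting, was 7 with the 75th percentile of all miRNAs as scale, 0 with the 75th percentile of miRNAs detected on all 8 arrays, 58 with normexp, 30 with the authors' normalized values, 0 with a floor of 0.1, 31 with a floor of 10, 0 for miRNAs detected on all 8 arrays, 6 with 4 group means, 0 without the operation term, 31 with a spread fitted to the level, 5 by the methods' t-test after adjustment, 0 within the UVD arrays and 2 within the SO arrays. Where limma counted 0, an unadjusted p under 0.05 was found for 117, 105, 105, 94 and 76 miRNAs in that order. The methods' t-test found 162 at the p limit of 0.15. In the limma settings that used both operations, all called miRNAs had the same sign in both except with 4 group means, where 5 of 6 did, and of the 2 called within the SO arrays miR-7a-2-3p had the opposite sign with UVD. With the replicate number as a block 3 miRNAs were called, all higher at 4 d; same-numbered arrays of different groups deviated with correlations of -0.17 to 0.18, so the numbers do not pair them. With 1 array left out, 0 to 12 were called, 0 to 12 with the same sign. Time changes that differed between operations numbered 0 with either percentile scale, with normexp, with the authors' values and with the fitted spread, and 0 to 9 with 1 array left out. The share of miRNAs with the same direction was 58.0% with the 75th percentile of miRNAs detected on all 8 arrays and 58.46% with a floor of 10.

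Some changes that did not pass the test in the reported setting turned sign in others. With the 75th percentile of all miRNAs as scale, miR-338-3p had 0.15 and miR-199a-3p 0.033 (log2). With that of miRNAs detected on all 8 arrays, miR-338-3p had 0.051, miR-143-3p -0.034 and miR-133a-3p -0.059. With normexp, miR-143-3p had -0.065, miR-133a-3p -0.026 and miR-219a-5p -0.033. With the authors' values, miR-338-3p had 0.10 and miR-219a-5p -0.0082. With 1 array left out, miR-219a-5p lay between -0.052 and 0.078, miR-133a-3p between -0.082 and 0.16, miR-133b-3p between -0.026 and 0.22, and miR-143-3p between -0.000419 and 0.089. Within the UVD arrays, miR-199a-5p had 0.13, miR-1-3p -0.064, miR-133a-3p -0.27, miR-133b-3p -0.097, miR-219a-5p -0.085, miR-31a-5p -0.021 and miR-7a-2-3p 0.14, and within the SO arrays miR-221-3p had -0.14. The cause was not tested for these or for the counts above. miR-547-3p had no value with a floor of 10, where all its arrays stood at the floor. Differences of dim miRNAs near the floor are limited by signal over background.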
